A study of Mus musculus with 27 samples.

Results

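The imprinted growth genes examined here are 10 genes that are expressed from only 1 parental copy in many mouse tissues and that act in growth or cell cycle exit: Igf2, H19, Dlk1, Meg3, Cdkn1c, Peg3, Plagl1, Grb10, Mest and Ndn. They were taken by symbol from a table of 38168 annotated features, and all 10 were found. Meg3 has more than 1 entry, and the entry with the higher mean was used. The data are RNA-seq levels in whole retina of wild type C57BL/6J mice, an inbred laboratory strain, from embryonic day 14 (E14) to postnatal day 60 (P60). E14, E17 and P6 have 3 libraries each, P60 has 6, and the other ages (P1, P15, P28) have 4 each. No group carried a transgene, deletion or treatment. Embryonic libraries were pools of several embryos, and postnatal libraries up to P28 were pools of several mice. At P60, 4 of the 6 libraries came from individual mice and the others from pools of 3 mice. The sources used here do not say which library is which. Mice up to P1 were of mixed sex and later mice were males. The question put to the data was whether these genes share a decline over the 7 ages, and which of them do not follow it.

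Imprinted genes carry a parent-of-origin mark, laid down in the germline as DNA methylation at control regions, that silences the maternal or the paternal copy. Many sit in clusters, such as Igf2 beside H19 and Dlk1 beside Meg3, and as a class they are known for their roles in fetal and placental growth. In the embryonic retina, dividing progenitor cells are replaced over time by neurons and Müller glia that no longer divide. Levels were measured in 1 inbred strain without allele information, so they show how much RNA each gene gave and not which parental copy it came from.

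Levels are given in cpm, the reads of a feature scaled to the total of its library, which was 7077781 to 11332323 reads. A gene with no read in a library could still be at up to 0.424 cpm in the shallowest library, taking 3 reads as the limit, which covers counting error only. Between any pair of libraries of an age, the difference exceeded counting noise, so none was a copy of another and each was counted as a sample. This cannot tell libraries of separate mice from separate preparations of the same RNA pool. The progenitor and cycling markers, a list of 8 genes, summed to 4337 to 4580 cpm at E14, 2887 to 3298 cpm at P1, 82.9 to 111 cpm at P6 and 8.03 to 10.8 cpm at P15. The 8 retinal neuron markers rose from 228 to 239 cpm at E14 to between 16829 and 20691 cpm at P60. Mesenchyme markers, with 7 of 8 genes found, never summed to more than 12.6 cpm. Lens markers, with 5 of 7 genes found, stayed at or below 10.1 cpm. In bulk retina, fewer cells of a type and less RNA per cell cannot be told apart.

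At P60, replicates 3 to 6 stood apart from replicates 1 and 2. Individual mice gave 4 of the 6 libraries of this age, and the sources used here do not say whether these are replicates 3 to 6. Gh, which encodes growth hormone of the pituitary, was at 18.3 to 25.9 cpm in these 4 libraries and at 0 in the other 23. Pomc, a pituitary hormone precursor, was at 5.02 to 6.86 cpm in the 4 and at 0 to 0.882 cpm in the other 23. A list of 12 pituitary genes, made after these values were seen, was measured through 8 of them, and their sum was 25.2 to 36.0 cpm in the 4 libraries against 1.27 and 1.70 cpm in the other 2 of that age and at most 3.78 cpm at younger ages. Cga, the shared subunit of several pituitary hormones, was at 0.275 to 0.552 cpm in the 4 libraries and at 0 in the other 23. The remaining genes measured, Tshb, Lhb, Pou1f1, Ghrhr and Pitx1, overlapped in range between the 4 libraries and the other 23. The higher sum thus rests mostly on Gh and Pomc. Prl, the prolactin gene, and 3 others of the list were not analysed here. Results that rest on these libraries are given with and without them.

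The genes lie on 5 chromosomes of the mouse build GRCm38, by GENCODE vM21. On chromosome 7, Igf2 (Gene ID 16002, minus strand) runs from 142650766 to 142666816 and H19 (14955, minus strand) from 142575529 to 142578143. Cdkn1c (12577, minus strand) runs from 143458339 to 143461050, Peg3 (18616, minus strand) from 6703892 to 6730431 and Ndn (17984, plus strand) from 62346569 to 62350262 on the same chromosome. On chromosome 12, Dlk1 (13386, plus strand) runs from 109452823 to 109463336 and Meg3 (17263, plus strand) from 109541001 to 109571726. On chromosome 10, Plagl1 (22634, plus strand) runs from 13060504 to 13131694. On chromosome 11, Grb10 (14783, minus strand) runs from 11930508 to 12038683, and on chromosome 6, Mest (17294, plus strand) runs from 30723547 to 30748465. H19 and Meg3 are annotated as long noncoding RNAs, and the other 8 as protein coding. Annotated genes overlap Igf2, H19, Meg3, Cdkn1c, Plagl1, Mest and Ndn on the opposite strand, among them Copg2 at Mest and Igf2os at Igf2, and if counting ignored the strand their reads cannot be told apart.

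The stretches just before the start sites are shown for a pair of genes that fell most among the coding members, Plagl1 and Grb10, and for Meg3 and Peg3, which rose (Peg3 under the minimum change without P60 replicates 3 to 6), so that their base composition can be compared. The sequences are the 250 bases before the first start listed by RefSeq for each gene, in build GRCm38.p6, written 5′ to 3′ on the gene's strand, with CG dinucleotides, the site of DNA methylation, in capitals. No window is shown for H19 and Cdkn1c.

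Plagl1, chr10:13090582-13090831, plus strand: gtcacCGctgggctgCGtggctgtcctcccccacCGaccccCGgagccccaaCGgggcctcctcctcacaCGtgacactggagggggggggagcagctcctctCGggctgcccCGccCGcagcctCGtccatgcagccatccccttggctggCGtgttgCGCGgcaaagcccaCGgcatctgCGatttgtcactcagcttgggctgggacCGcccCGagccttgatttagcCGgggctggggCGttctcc
Grb10, chr11:12037421-12037670, minus strand: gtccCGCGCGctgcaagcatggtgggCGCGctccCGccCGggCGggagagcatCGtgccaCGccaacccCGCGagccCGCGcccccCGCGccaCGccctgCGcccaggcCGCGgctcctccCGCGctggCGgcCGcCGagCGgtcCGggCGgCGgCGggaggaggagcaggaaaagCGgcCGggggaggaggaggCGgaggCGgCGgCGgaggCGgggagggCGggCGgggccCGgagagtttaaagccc
Meg3, chr12:109540746-109540995, plus strand: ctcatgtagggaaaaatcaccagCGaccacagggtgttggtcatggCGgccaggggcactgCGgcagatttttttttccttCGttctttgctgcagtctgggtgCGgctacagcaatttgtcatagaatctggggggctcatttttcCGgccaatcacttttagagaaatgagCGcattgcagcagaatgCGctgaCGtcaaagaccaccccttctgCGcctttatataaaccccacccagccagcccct
Peg3, chr7:6730420-6730669, minus strand: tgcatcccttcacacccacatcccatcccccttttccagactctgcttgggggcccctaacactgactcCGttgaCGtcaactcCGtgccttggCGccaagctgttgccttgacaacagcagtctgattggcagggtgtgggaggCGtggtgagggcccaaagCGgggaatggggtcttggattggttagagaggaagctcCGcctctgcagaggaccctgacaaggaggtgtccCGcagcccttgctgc

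These windows held 19 CG at Plagl1, 40 at Grb10, 10 at Meg3 and 8 at Peg3. Of 32851 windows of this length before all listed starts, 19.7% held at least as many CG as that of Plagl1 and 1.31% at least as many as that of Grb10. For Meg3 and Peg3 the shares were 37.8% and 43%. The other members and starts did not sort by direction, since the first window of Mest, which fell, held 7 CG and the second start of Grb10 held 8, as many as Peg3, while the second start of Meg3 held 0. The motif GGGGCCCC, which reads the same on both strands, occurred once before Peg3 and in none of the other 14 windows of the members, which come from 8 genes. It occurred in 0.889% of all windows. Both noncoding members also contain microRNA genes, whose mature products are printed here with the seed, bases 2 to 8, in capitals. The mature microRNAs were not measured, so only the host RNA has a level in these data.

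miR-675-5p, within H19: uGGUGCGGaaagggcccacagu
miR-675-3p, within H19: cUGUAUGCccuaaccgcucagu
miR-770-5p, within Meg3: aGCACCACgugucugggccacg
miR-770-3p, within Meg3: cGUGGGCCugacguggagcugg

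The members did not share a course. Between embryonic (E14 and E17) and mature (P15, P28 and P60) retina, 5 of the 10 fell (H19, Plagl1, Grb10, Cdkn1c and Mest), 2 rose (Meg3 and Peg3) and 3 did not pass the test (Igf2, Dlk1 and Ndn). A gene was called at an adjusted p under 0.05 in limma on log2(cpm + 1), fitted to all features with age as the factor, together with a log2 change of at least 1. Of all 31760 features tested, 16.1% fell and 14.9% rose by this rule. The median log2 change was -1.06 for the members and -0.06 for all features. Peg3 passed only narrowly, and without P60 replicates 3 to 6 it fell under the minimum, which leaves 1 rising member. At the adjusted p alone, 7 members fell (with Igf2 and Ndn added) and 2 rose, against 40.4% and 35.0% of all features. All 10 were tested, but Dlk1 passed the filter of 1 cpm in 3 libraries only through P60 replicates 3 to 6 and 1 library of E14.

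Fitted as a straight line over the 7 ages, 5 members fell and 2 rose, against 21.9% and 18.7% of all features. The genes were the ones named above, and at the adjusted p alone 7 fell and 2 rose, against 42.3% and 35.1%. Summed over the 6 steps, the fitted log2 change was -7.20 for H19, -6.21 for Plagl1, -4.12 for Grb10, -3.06 for Cdkn1c and -1.75 for Mest. It was 3.08 for Meg3 and 1.40 for Peg3. Ndn, at -0.94, and Igf2, at -0.53, stayed under the minimum. With P60 replicates 3 to 6 left out, Ndn also passed, with a slope of -0.18 per age against -0.16. All 10 members varied over the ages by limma's F test, as did 83.0% of all features, but Dlk1 entered that test only through the libraries where it is high.

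**Figure D1:**
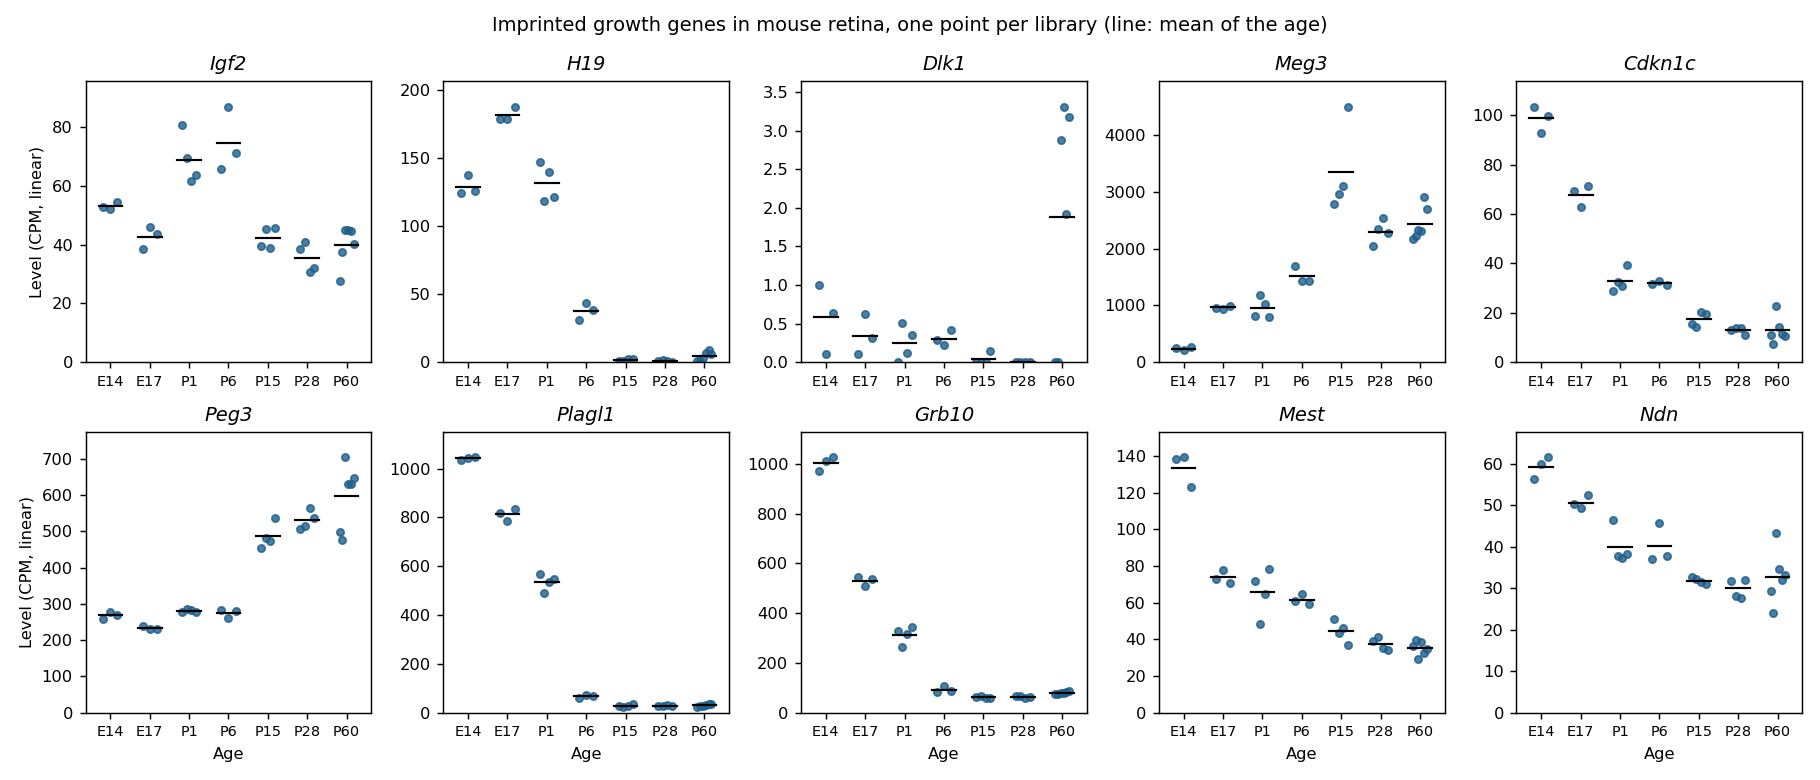
Level of each gene in cpm on a linear axis against age, with a point for each of the 27 libraries and a line at the mean of the age. Plagl1, Grb10 and Cdkn1c were highest at E14 and H19 at E17, Meg3 peaked at P15, and Dlk1 was at 1.92 cpm or more in 4 libraries of P60 and at or below 1.0003 cpm in all others.

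H19, a noncoding RNA made from the maternal copy, had the largest fall of the members. Its level was 124, 138 and 126 cpm at E14, 179, 179 and 188 cpm at E17 and 147, 119, 140.1 and 122 cpm at P1. It was 30.9, 43.4 and 38.6 cpm at P6, then 1.07, 0.790, 2.19 and 2.06 cpm at P15 and 0.666, 1.69, 0.947 and 0.377 cpm at P28. The libraries of E14, E17 and P1 were thus all at or above 119 cpm and those of P15 and P28 all at or below 2.19 cpm, with P6 in between. The log2 change from embryonic to mature retina was -5.82 ± 0.24 (SE, 6 against 14 libraries, limma adjusted p = 2.08e-20). Igf2, the fetal growth factor made from the paternal copy of the neighboring gene, did not pass the minimum change over the same time. It was 53.1 ± 1.17 cpm at E14 (SD, n = 3), 74.7 ± 10.96 cpm at P6 (n = 3) and 35.5 ± 4.88 cpm at P28 (n = 4). Embryonic libraries lay between 38.3 and 54.4 cpm and mature ones between 27.5 and 45.5 cpm, so the groups overlapped. The log2 change was -0.28 ± 0.09 (limma adjusted p = 0.0042), and under median-of-ratios scaling it was -0.21 with an adjusted p of 0.0544.

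The ratio of H19 to Igf2 reads therefore shifted over the ages. It was 2.31 to 2.64 at E14 and 3.91 to 4.66 at E17, 1.71 to 2.28 at P1 and 0.47 to 0.542 at P6. At P15 it was 0.0175 to 0.0564 and at P28 0.0117 to 0.0414. These are ratios of reads and not of molecules, since no gene length entered. At P60 it was 0.0262 to 0.198, with the highest values in replicates 3 to 6. The ranges of E14 to P6 lay wholly above those of P15, P28 and P60.

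Plagl1, a zinc finger transcription factor made from the paternal copy, had a lower mean at each age up to P15 than at the age before. It was 1035, 1045 and 1047 cpm at E14, 819, 786 and 833 cpm at E17 and 570.1, 489, 535 and 549.6 cpm at P1. At P6 the libraries held 58.6, 70.8 and 70.2 cpm, and from P15 on no library exceeded 36.5 cpm. The lowest library of P1, at 489 cpm, stood far above the highest of P6, at 70.8 cpm, and this step was the largest drop, with a log2 change of -2.99 ± 0.11 (SE, limma adjusted p = 7.34e-20). Grb10, an adaptor that binds the insulin and IGF1 receptors and dampens their signal, is made from the maternal copy in most tissues and from the paternal copy in neurons. It was 972, 1011 and 1027 cpm at E14 and 543, 509 and 537 cpm at E17. It was 265 to 343 cpm at P1, 81.2 to 106 cpm at P6 and 59.5 to 86.1 cpm in all 14 libraries from P15 to P60. From P1 to P6 its log2 change was -1.77 ± 0.08 (limma adjusted p = 1.38e-17). The progenitor and cycling markers moved with both genes, and all 8 of them fell between P1 and P6. The part of cell number in these falls was not tested.

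Cdkn1c encodes p57, a cyclin-dependent kinase inhibitor that halts cell division, and is made from the maternal copy. It was 104, 92.9 and 99.7 cpm at E14, 69.2, 62.7 and 71.3 cpm at E17, 28.8 to 39.3 cpm at P1 and 31.2 to 32.9 cpm at P6. In the 14 mature libraries it was between 7.32 and 22.6 cpm, below every embryonic library. The log2 change between E17 and P1 was -1.03 ± 0.19 (limma adjusted p = 0.000347), and it slipped just under the minimum, to -0.99 and -0.97, when E17 replicate 3 or P1 replicate 1 was left out. Between P1 and P6, when the progenitor and cycling markers fell, its log2 change was -0.03 ± 0.19 (adjusted p = 0.915). Mest, a paternally expressed gene for a protein with a hydrolase fold, went from 134 ± 8.99 cpm at E14 to 73.8 ± 3.72 cpm at E17 (SD, n = 3 each) and to 35.1 ± 3.94 cpm at P60 (n = 6). Its 6 embryonic libraries, at 70.7 to 139 cpm, were all above the 14 mature ones, at 29.1 to 50.9 cpm, and the log2 change was -1.34 ± 0.08 (limma adjusted p = 5.53e-16). Ndn, which encodes necdin, a growth-suppressing protein of neurons, declined less, from 59.3 ± 2.69 cpm at E14 to 29.9 ± 2.26 cpm at P28 (n = 4). Its embryonic and mature libraries did not overlap, but the log2 change of -0.79 ± 0.08 (limma adjusted p = 2.05e-10) was under the minimum.

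Meg3, a maternally expressed noncoding RNA, rose early and again from P1 to P15. It was 244, 209 and 259 cpm at E14, 955, 942 and 994 cpm at E17 and 795 to 1175 cpm at P1. It was 1685, 1431 and 1427 cpm at P6, then 2793, 2970.2, 3098 and 4502 cpm at P15, and 2052 to 2530.3 cpm at P28. At P60 its lowest, median and highest libraries were at 2167, 2319 and 2908 cpm. The highest embryonic library, at 994 cpm, was below the lowest mature one, at 2052 cpm. The log2 change between E14 and E17 was 2.02 ± 0.14 (limma adjusted p = 8.12e-13). Between P1 and P6 it was 0.68 ± 0.13 (limma adjusted p = 6.62e-05), under the minimum, and from embryonic to mature retina 2.46 ± 0.08 (adjusted p = 1.23e-22). The lower entry of Meg3 also rose, from a mean of 9.69 cpm at E14 to 118 cpm at P15. It was then at 89.9 cpm at P28 and 125 cpm at P60, so its highest mean was at P60 and not at P15. Peg3, a paternally expressed zinc finger gene, was 230.3 to 278 cpm in embryonic libraries and 262 to 286 cpm at P1 and P6. It was 455, 481, 474 and 537 cpm at P15 and 506, 516, 564 and 536 cpm at P28, so the rise lay between P6 and P15, at a log2 change of 0.82 ± 0.09 (limma adjusted p = 1.4e-08). From embryonic to mature retina the log2 change was 1.09 ± 0.06 (adjusted p = 2.74e-17), and without P60 replicates 3 to 6 it was 0.995 (adjusted p = 8.18e-24), which leaves 1 member rising by the rule. Peg3 was at 631 to 705 cpm in those 4 libraries and at or below 564 cpm in all others.

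**Figure D2:**
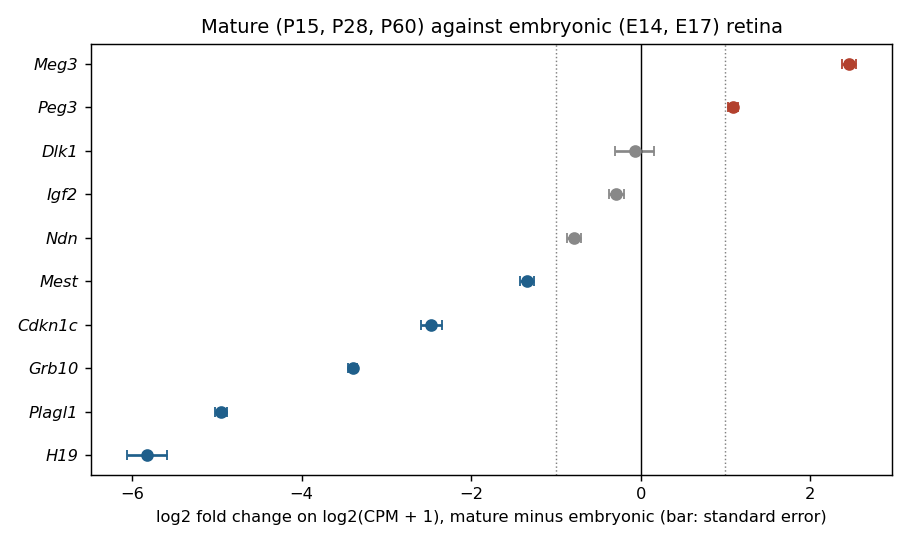
Log2 change of each member on log2(cpm + 1) from embryonic to mature retina, with its standard error as the bar and dotted lines at the minimum of 1. H19 is farthest to the left at -5.82 and Meg3 farthest to the right at 2.46, and grey points are the 3 members that did not pass the test.

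Step by step, the members that passed the rule differed, although whether a gene changed more at a given step than at another was not tested. Between E14 and E17 1 member changed (Meg3, higher), against 3.60% of all features, and between E17 and P1 1 changed (Cdkn1c, lower), against 1.84%. Between P1 and P6, 3 changed (H19, Plagl1 and Grb10, all lower), against 13.0%. Between P6 and P15, 3 changed (H19 and Plagl1 lower, Meg3 higher), against 8.05%. At the adjusted p alone, 9 members changed at this step, against 33.4% of all features. Of the 9, 7 were lower (H19, Plagl1, Cdkn1c, Igf2, Grb10, Mest and Ndn), among them all 5 that fell from embryonic to mature retina. H19 lost most there, at a log2 change of -3.96 ± 0.37 (limma adjusted p = 3.99e-10). Mest had its largest drop between E14 and E17, at -0.85 ± 0.13 (adjusted p = 1.96e-05), under the minimum. Between P15 and P28, 0 members changed in limma, against 0.384% of all features, and 0 members were called in edgeR. In limma 3 members had an unadjusted p under 0.05. Of these, 1 passed the adjusted p alone, Meg3, lower at a log2 change of -0.52 ± 0.12 (limma adjusted p = 0.0113). In edgeR 1 member passed the adjusted p alone. The shares of all features at these looser thresholds were not computed for this step, so these counts are not read as a result about the members.

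**Figure D3:**
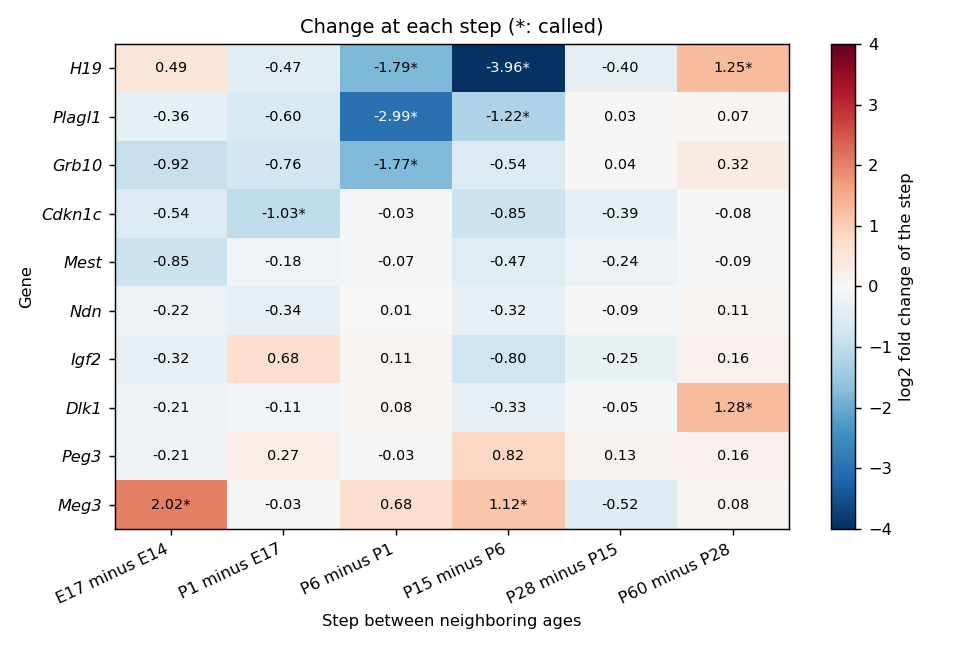
Log2 change of each member at each of the 6 steps between neighboring ages, in color and in numbers, with an asterisk where it was called. The called falls of H19, Plagl1 and Grb10 sit at the steps from P1 to P6 and from P6 to P15, while that of Cdkn1c sits between E17 and P1.

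Between P28 and P60, 2 members passed the rule (H19 and Dlk1, both higher), against 0.453% of all features, but Dlk1 passed the filter on low values mainly through the P60 libraries where it is high, so its difference is given as a description with no test. H19 was at 0.787, 0.986, 3.14, 6.96, 8.79 and 5.63 cpm in P60 replicates 1 to 6. The 4 higher values are those of replicates 3 to 6. Dlk1, which encodes a transmembrane protein related to the Notch ligands and is known from the pituitary and other endocrine tissues, was at 0 in all 4 libraries of P28 and in replicates 1 and 2 of P60, and at 2.89, 3.31, 1.92 and 3.18 cpm in replicates 3 to 6, from 14 to 30 reads each. At E14 it was at 1.0003, 0.105 and 0.632 cpm, and at E17, P1, P6 and P15 at 0 to 0.618 cpm. Against a limit of 3 reads a library at P28, its P60 mean was at least 4.47-fold higher. That mean rests on replicates 3 to 6 alone, since replicates 1 and 2 were at 0 like P28, so it is not a difference of P60 as a whole. Grb10 was higher at the adjusted p alone, at a log2 change of 0.32 ± 0.07 (limma adjusted p = 0.00722), under the minimum. Without P60 replicates 3 to 6, 0 members passed the adjusted p alone. The fitted log2 change of H19 was 1.25 ± 0.31 (limma adjusted p = 0.0125). Without P60 replicates 3 to 6 it was 0.02 (limma adjusted p = 0.984), Dlk1 no longer passed the filter, and 0 members were called by limma or edgeR. In each fit 2 members had an unadjusted p under 0.05, and the share of all features at that threshold was not computed. Of all features called at this step, 16.7% were higher with the values as deposited, 31.9% under median-of-ratios scaling and 43.8% in edgeR, which changes the model as well as the scaling. Other lists also stood higher in replicates 3 to 6 than in replicates 1 and 2. The progenitor and cycling markers summed to 13.5 to 18.8 cpm against 8.79 and 11.8 cpm. The mesenchyme markers summed to 6.15 to 12.6 cpm against 3.02 and 6.06 cpm, but also reached 11.4 cpm at E14. The retinal neuron markers summed to 18162 to 20691 cpm against 16829 and 17046 cpm. The Müller glia markers summed to 1134 to 1198 cpm against 998 and 997 cpm. Lists of vessel, retinal pigment epithelium, lens and blood markers overlapped between these replicates. Mki67, the proliferation marker, was at 3.14 to 4.42 cpm in these 4 libraries and at or below 0.666 cpm in the other 2 and in P28, and Col1a1, a collagen of mesenchyme, at 1.63 to 3.43 cpm against at most 1.199 cpm. Dlk1 and H19 moved with these genes and with the pituitary genes, whose part in the result was not tested.

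**Figure D4:**
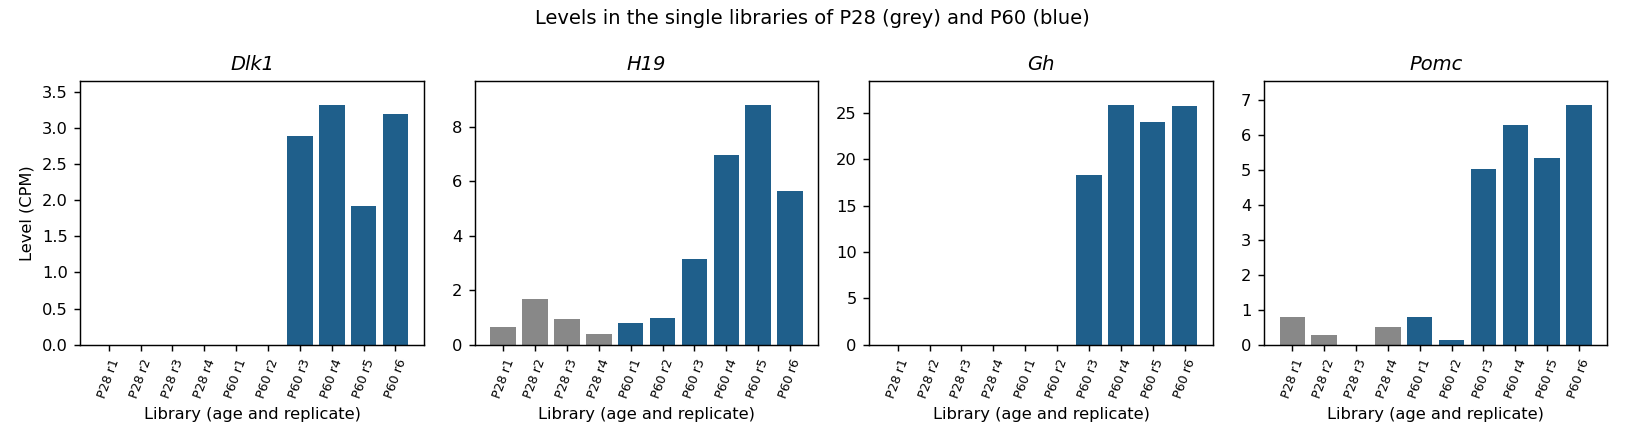
Level in cpm of Dlk1, H19 and the pituitary genes Gh and Pomc in each library of P28 (grey) and P60 (blue), as bars from 0. Dlk1 and Gh are at 0 in all 4 libraries of P28 and in P60 replicates 1 and 2, and all 4 genes are higher in P60 replicates 3 to 6.

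The make-up of the members' reads changed with these shifts. The 10 genes together held 2985 to 3068 cpm at E14, 2104 to 2333 cpm at P6 and 3475 to 5270 cpm at P15. Plagl1 and Grb10 gave 67.2 to 68.0% of these reads at E14 and 1.84 to 2.54% at P15, and Meg3 gave 6.92 to 8.45% at E14 and 80.4 to 85.4% at P15. The shares are of reads and depend on gene length.

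By Pearson's r over the 27 libraries, the features with a Gene ID most alike to each member were listed as a description. All genes that move with age share this likeness to some extent. Plagl1 was most like Igf2bp1, which encodes an RNA-binding protein of Igf2 and other mRNAs, at r = 0.997. H19 was most like Ptprs at 0.988 and the proliferation marker Mki67 at 0.984, and Grb10 was most like Serinc2 and Fgf15, both at 0.990. Meg3 was most like Kcnip3 and Calb2, which encodes calretinin of amacrine and ganglion cells, both at 0.978. Cdkn1c was most like Tubb3, a tubulin of young neurons, at 0.973, and Peg3 was most like Cep164 at 0.982. Dlk1 was most like Neurl4 at 0.926, Pomc at 0.908 and Gh at 0.907. Dlk1, Pomc and Gh were all highest in P60 replicates 3 to 6 and low or absent elsewhere. Their r values therefore rest mainly on those libraries and are no separate evidence of a link. Among the members, Plagl1 and Grb10 were the most alike pair at 0.974.

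Of 37 other imprinted genes on the list, 34 were found and 31 were tested. From embryonic to mature retina 9 of the 31 fell, 8 rose and 14 did not pass the test, with a median log2 change of -0.19. Of all features, 16.1% fell and 14.9% rose, with a median of -0.06. The same shares stand beside the counts by parental copy below. The largest falls were those of Peg12, at -5.02 ± 0.11, and Dio3, the deiodinase that inactivates thyroid hormone, at -3.26 ± 0.12, which went from 17.03 ± 1.26 cpm at E14 to 0 in all 3 libraries of P6. The largest rises were those of Rasgrf1, a Ras exchange factor of neurons, at 5.84 ± 0.08, Nap1l5 at 3.91 ± 0.08, the potassium channel gene Kcnk9 at 3.52 ± 0.11 and the antisense RNA gene Airn at 3.28 ± 0.10. All 6 passed the limma test, with an adjusted p of 4.96e-22 or less. Rasgrf1 was at 0.0685 ± 0.0594 cpm at E14 and 68.7 ± 5.83 cpm at P60. By the parental copy that textbooks give as active, 2 of 6 paternal members fell and 1 rose, and 3 of 4 maternal members fell and 1 rose. Counting Grb10 as paternal, as in neurons, gives 3 of 7 paternal and 2 of 3 maternal members lower. Among the other imprinted genes 8 of 21 paternal ones fell and 6 rose, and 1 of 10 maternal ones fell and 2 rose. Falls and rises thus occurred on both sides.

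The IGF pathway holds the genes that carry or limit the signal of Igf2. Of 21 such genes on the list, 19 were found and 17 were tested. Of these, 8 fell, 3 rose (Pappa, Pappa2 and Igfbp7) and 6 did not pass the test, with a median log2 change of -0.86. Among all features 16.1% fell and 14.9% rose, with a median of -0.06. The RNA-binding proteins Igf2bp1 and Igf2bp2 fell most, at -7.39 ± 0.11 and -3.90 ± 0.10. Igf2bp1 went from 296 cpm at E14 to 2.90 cpm at P6 in the mean. The binding proteins Igfbp2 and Igfbp4 changed by -3.42 ± 0.16 and -2.12 ± 0.09, and the receptor substrates Irs1 and Irs4 by -1.69 ± 0.06 and -1.65 ± 0.14. All 6 passed, with an adjusted p of 4.27e-12 or less. The receptor Igf1r changed by -0.57 ± 0.04 and Igf2r, an imprinted receptor that clears Igf2 and is also counted above, by -0.86 ± 0.08, both under the minimum. Igf1, the growth factor that shares the receptor with Igf2, was not called at 0.20 ± 0.11 (limma adjusted p = 0.117).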

How the data were processed

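The authors prepared total RNA libraries from retina, aligned single-end reads to mm10 (GRCm38) with STAR and deposited CPM values, the reads of each feature scaled to the library's total. The annotation and the use of strand in counting are not given in the sources used here. All values were whole multiples of 1 read (100%, within 0.01 of a read), which gave the reads back. Values as log2(CPM + 1) were tested two-sided with limma 3.58.1 in R 4.3.3 (mean-variance trend, 27 libraries, age as the factor), with Benjamini-Hochberg adjustment over the 31760 features that reached 1 CPM in 3 or more libraries. P-values measure the spread between libraries, which may in part be technical. Alternatives were a pseudocount of 0.1, no filter or a mean CPM minimum of 10, scaling by median of ratios, a block for the replicate number, edgeR 4.0.16 (TMM) on the recovered reads with and without E14 replicate 1, summed entries of a symbol, the compared ages only, no minimum change and leaving out each library. Leaving out P60 replicates 3 to 6 together was added after the values were seen.

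The members and lists were chosen with earlier results of these data known. Named genes are the members, the 6 called genes with the largest change of each list, and the features most alike to each member. Igf1, Igf1r, Igf2r, Pappa, Pappa2, Igfbp7, Mki67, Col1a1 and the pituitary genes were named after their values were seen. On simulated reads, for mature against embryonic retina, limma recovered 199 of 200 features changed by 1.5 (log2) and made 0 false calls among 30459 features. EdgeR recovered 200 and made 3 false calls. The simulated reads had the same dispersion for all features, and no other feature changed with age. This is an easier case than these data, so it checks that the code runs as meant and gives no error rate for the results.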

Additional observations from a re-analysis of the deposited data

Results flagged for a closer look

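Within ages of 4 to 6 libraries, 39 sets of member values were tested for a library far from the rest, and chance marks about 1 in 20. At P1, Ndn was at 46.36 cpm in replicate 1, and the other 3 libraries lay close together, with a median of all 4 at 38.01 cpm. The gap to the nearest library was 0.890 of the whole range. At P15, Dlk1 was at 0.1375 cpm in replicate 4, which is 1 read, and at 0 in the other 3.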

How the results depend on the processing

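The counts of members that fell or rose between embryonic and mature retina and over the 7 ages stayed within 1.5 times of those reported under the alternatives run, except that leaving out P60 replicates 3 to 6 together left 1 rising member (Meg3). Between P28 and P60 the count of changed members was 1 when a mean CPM of 10 or more was required, and 0 with the replicate block, with a fit of P28 and P60 only, and without P60 replicates 3 to 6. With the replicate block, the log2 change of H19 was 0.82 (limma adjusted p = 0.0835). Numbers 5 and 6 occur only at P60, so under the block those libraries add nothing to the P60 estimate. Replicate numbers are only names here, as deviations of libraries of different ages with the same number correlated at a median r of -0.00178 and of those with another number at 0.00418. Between E17 and P1 the count was 0 to 1 when a library was left out, 0 without E17 replicate 3 or P1 replicate 1. The log2 change of Dlk1 from embryonic to mature retina, -0.07, ran from -0.1886 to 0.02532 when a library was left out and turned positive without E14 replicate 1 (0.02532), E17 replicate 2 (0.0009548) or P60 replicate 1 or 2 (0.01485 each). It was -1.03 with a pseudocount of 0.1 (adjusted p = 0.145), -0.27 with the replicate block, -1.99 in edgeR (adjusted p = 0.0613) and -1.67 in edgeR without E14 replicate 1 (adjusted p = 0.133), so its size depends on how values near 0 are treated. Igf2 missed the adjusted p under median-of-ratios scaling (-0.21) and in edgeR (-0.18, adjusted p = 0.082, and -0.19 without E14 replicate 1). EdgeR put the median log2 change of all features from embryonic to mature retina at 0.04 against -0.06. The cause was not tested in any of these. Depth limits what can be said of Dlk1, which had at most 10 reads in any library of E14 to P28.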
